A study of Mus musculus with 8 samples.

Results

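The genes described here are 9 enzyme genes and partner genes of eicosanoid synthesis, *Pla2g4a*, *Ptgs1*, *Ptgs2*, *Ptges*, *Alox5*, *Alox5ap*, *Lta4h*, *Ltc4s* and *Alox15*. They were selected by their symbols in the GENCODE M21 annotation, and all 9 of the 9 symbols had an identifier among the 55414 listed in the count files. All 9 also passed the filter on low counts, which kept 16778 genes for testing. The set was put together with the comparison of *Cxcr2-/-* and WT libraries in view, because *Ptgs2* was among the genes with the largest differences, so the differences of these 9 genes are given below as a description and without a test. *Ly6g*, *S100a8* and *Ltf*, which define neutrophils, were abundant in all 8 libraries.

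RNA was sequenced from neutrophils sorted from the spleen of 4 WT and 4 *Cxcr2-/-* mice, with 1 library per mouse. Both groups were on the FVB background, were aged 10 weeks and shared the same SOPF housing, and the labels name no treatment. The *Cxcr2-/-* mice lack this chemokine receptor in every cell of the body, so that other cells of these animals lack it too. Cells were enriched for CD11b and then sorted as positive for CD45, CD11b and Ly6G and negative for F4/80, a marker of macrophages. The comparison addresses how the loss of *Cxcr2* changes the RNA content of spleen neutrophils.

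Eicosanoids are lipid signals made from arachidonic acid, which cytosolic phospholipase A2 releases from membranes. Cyclooxygenases turn it into prostaglandin H2, the precursor of the prostaglandins and thromboxane, whereas 5-lipoxygenase with its partner FLAP turns it into leukotriene A4, which is made into leukotriene B4 by one enzyme and into leukotriene C4 by another. Neutrophils are known as a source of leukotriene B4, which attracts further neutrophils, and they induce cyclooxygenase-2 upon stimulation.

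The total of counts on genes ranged from 34220182 to 46233555 in the WT libraries and from 37549648 to 43789253 in the *Cxcr2-/-* libraries. Levels are given as counts per 1000000 counts on the genes that passed the filter, with library sizes scaled by TMM factors (CPM). *Cxcr2* itself averaged 1956 ± 221 CPM in the WT mice, against 17.1 ± 3.46 CPM in the *Cxcr2-/-* mice (SD, n = 4 each), a log2 fold change of -6.84 ± 0.19 (SE; edgeR quasi-likelihood test, Benjamini-Hochberg adjusted p = 3.50e-10). Of the 10 neutrophil markers, 9 had a positive and 1 a negative log2 fold change, and their summed level was 41182 to 57195 CPM in WT and 89796 to 115142 CPM in *Cxcr2-/-*. Reads that HTSeq assigned to no counted feature made up 31.4% to 41.5% of all reads in its totals in WT and 26.7% to 31.9% in *Cxcr2-/-*. The macrophage and monocyte list summed to 700.1 to 814 CPM in WT and 836 to 936 CPM in *Cxcr2-/-*. Of its 10 genes, 8 were lower and 2 higher. Its most abundant genes differed in opposite directions, *Csf1r* being at 442 ± 41.1 and 232 ± 42.1 CPM and *Ly6c2* at 239 ± 35.1 and 627 ± 38.4 CPM. *Adgre1*, which encodes F4/80, was at 30.6 ± 4.59 and 12.3 ± 3.17 CPM. The platelet list summed to 15.4 to 20.9 CPM in WT and 10.3 to 15.1 CPM in *Cxcr2-/-*, and its defining genes *Pf4* and *Ppbp* were below the filter in both groups. B cell genes summed to 22.4 to 58.1 and 12.8 to 27.1 CPM, T cell genes to 82.1 to 112 and 88.4 to 137 CPM, basophil and mast cell genes to 15.6 to 36.2 and 20.9 to 37.7 CPM, and erythroid genes to 1.76 to 4.49 and 1.63 to 12.0 CPM. Most of the T cell sum was *Cd3d*, at 99.1 and 108 CPM, with *Cd3e*, *Cd8a* and *Trac* below the filter. Most of the basophil and mast cell sum was *Kit*, at 22.2 and 28.5 CPM, with *Mcpt8*, *Cpa3*, *Fcer1a* and *Gata2* below the filter. The part of these differences in the values below was not tested except where a value is given.

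The largest difference among the 9 genes was that of *Ptgs2*, which encodes cyclooxygenase-2, the inducible form of the enzyme and the target of coxib drugs. The promoter of *Ptgs2* is shown first, because several genes for the factors known to act on it are described below, and that of *Alox5* is shown beside it for comparison, because *Alox5* is the abundant lipoxygenase gene and differed the other way. Both come from RefSeq (GRCm38.p6) and hold the 250 bases before the annotated start of the transcript, read 5' to 3' on the strand of the gene. The *Ptgs2* window lies at chr1:150099781-150100030 on the plus strand and the *Alox5* window at chr6:116461179-116461428 on the minus strand. A further line gives the 21 bases from position 8 to 28 after the *Ptgs2* start, at chr1:150100038-150100058. Capitals mark the motifs found.
Ptgs2 promoter: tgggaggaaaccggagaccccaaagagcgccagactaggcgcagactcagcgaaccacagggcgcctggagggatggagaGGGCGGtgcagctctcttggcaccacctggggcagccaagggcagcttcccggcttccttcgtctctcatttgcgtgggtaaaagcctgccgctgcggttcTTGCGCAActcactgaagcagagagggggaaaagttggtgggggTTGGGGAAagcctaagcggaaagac
Ptgs2 after the start: ccactaCGTCACGTGgagtcc
Alox5 promoter: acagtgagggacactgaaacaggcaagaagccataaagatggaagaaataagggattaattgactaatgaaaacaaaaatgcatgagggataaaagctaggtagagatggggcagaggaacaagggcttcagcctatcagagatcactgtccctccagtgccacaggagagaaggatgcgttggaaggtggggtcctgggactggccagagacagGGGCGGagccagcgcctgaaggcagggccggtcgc

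Both strands of 300 bases, the promoter and the first bases after the start, were searched for 7 motifs. These were the CRE core CGTCA, the E-box CACGTG, the AP-1 site TGANTCA, the C/EBP site TTNCNNAA, the NF-kB site, the TATA box TATAAA and the SP1 site GGGCGG. The *Ptgs2* window held 4 of the 7. The SP1 motif lay 170 to 165 bases before the start and the C/EBP motif 69 to 62 and 25 to 18 bases before it, while the CRE core at positions 14 to 18 and the E-box at positions 17 to 22 after the start shared 2 bases. Of all 32851 RefSeq windows of this length, 20.8% held the CRE core, 7.15% the E-box, 7.81% the AP-1 site, 40.7% the C/EBP site, 0.411% the NF-kB site, 13.6% the TATA box and 35.7% the SP1 site. The *Alox5* window held 1 of the 7 motifs, the SP1 site, 35 to 30 bases before the start. RefSeq windows were found for 7 of the 9 genes and not for *Alox5ap* and *Alox15*. Those of *Ptgs1*, *Lta4h* and *Ltc4s* held none of these letters, that of *Ptges* held the C/EBP site and 2 SP1 sites, and the 2 windows of *Pla2g4a* held the C/EBP site in one and the TATA box in the other.

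**Figure D1:**
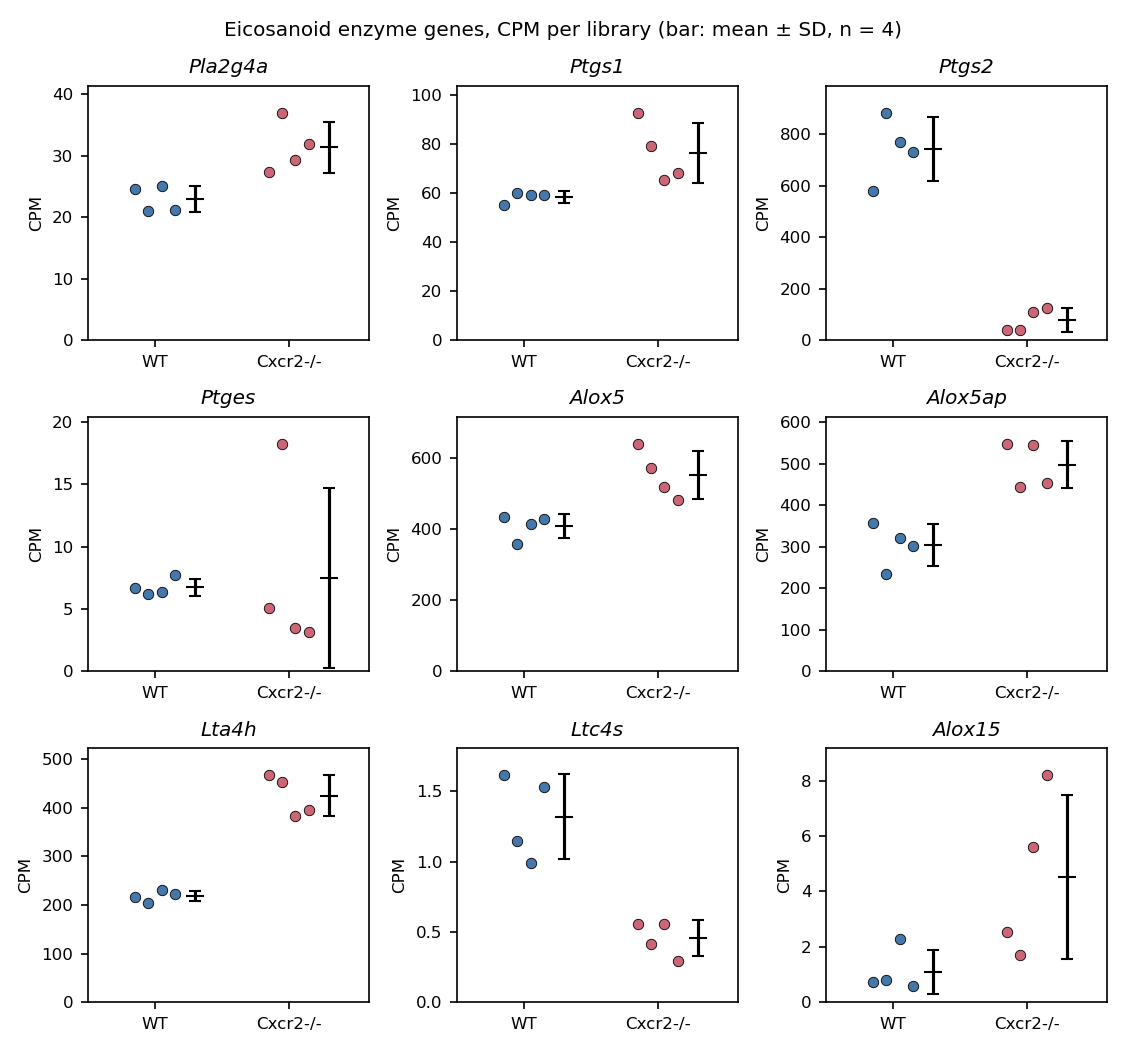
CPM of each of the 9 genes (y axis, starting at 0, own scale in each panel) in the 4 WT (blue) and 4 *Cxcr2-/-* (red) libraries, with replicates 1 to 4 from left to right; the bar beside each group is the mean ± SD. *Ptgs2* and *Ltc4s* lie lower in every *Cxcr2-/-* library, *Pla2g4a*, *Ptgs1*, *Alox5*, *Alox5ap* and *Lta4h* lie higher in every one, and the groups overlap for *Ptges* and *Alox15*.

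Read as a pathway, the *Cxcr2-/-* libraries had more RNA for the phospholipase, for 5-lipoxygenase, for FLAP and for the enzyme that makes leukotriene B4, and less RNA for cyclooxygenase-2 and for leukotriene C4 synthase. The plot of the 9 genes by library shows these levels. Calls needed both an adjusted p under 0.05 and a difference of at least 1.5-fold, and 5 of the 9 genes were called, 2 lower and 3 higher, where 31.3% of all genes tested were called, 15.7% lower and 15.7% higher. By adjusted p alone, 8 of the 9 passed, where 44.7% of all genes did. The WT and *Cxcr2-/-* values did not overlap for 7 of the 9 genes, and for 41.6% of all genes tested. The median log2 fold change of the 9 genes was 0.44, beside 0.01 over all genes. Because the set was chosen with this comparison in view, nothing is read from these counts. In bulk RNA from a sorted population, fewer cells that express a gene and less RNA of it in each cell cannot be told apart.

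*Pla2g4a* encodes cytosolic phospholipase A2 alpha, the enzyme that releases arachidonic acid upon calcium signals. It lies at chr1:149829618-149961290 on the minus strand (GRCm38), 138.7 kb from *Ptgs2*. Its level was 24.6, 21.0, 25.0 and 21.2 CPM in the WT libraries and 27.4, 36.9, 29.3 and 31.9 CPM in the *Cxcr2-/-* libraries. Every *Cxcr2-/-* library was above every WT library, the closest pair being 25.0 and 27.4 CPM. The means were 23.0 ± 2.14 and 31.4 ± 4.12 CPM (SD, n = 4 each), a log2 fold change of 0.45 ± 0.11 (SE), which is below the 1.5-fold threshold.

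*Ptgs2* (chr1:150100031-150108227, plus strand) was at 581, 882, 769 and 733 CPM in the WT libraries and at 40.6, 40.8, 109 and 127 CPM in the *Cxcr2-/-* libraries. The highest *Cxcr2-/-* library was thus far below the lowest WT library, but the *Cxcr2-/-* libraries also differed among themselves, replicates 1 and 2 being close to each other and replicates 3 and 4 higher. The means were 741 ± 124 and 79.3 ± 45.2 CPM (SD, n = 4 each), a log2 fold change of -3.22 ± 0.35 (SE) or 9.34-fold lower, and the highest *Cxcr2-/-* value was 3.12 times the lowest. Its log2 fold change ranged from -3.56 to -3.00 when libraries were left out one at a time. In the same *Cxcr2-/-* libraries, in the order of replicates 1 to 4, erythroid genes summed to 1.92, 1.63, 11.7 and 12.0 CPM. The eosinophil granule genes *Epx*, *Prg2* and *Prg3* summed to 6.42, 3.35, 13.7 and 22.9 CPM. Reads that HTSeq assigned to no counted feature made up 26.7%, 30.1%, 29.9% and 31.9%. Whether erythroid cells or eosinophils had a part in the spread of *Ptgs2* was not tested.

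*Ptgs1* (chr2:36230426-36252272) encodes cyclooxygenase-1, the form that most tissues keep at a steady level. It was at 55.0, 60.3, 59.4 and 59.5 CPM in WT and at 92.6, 79.4, 65.4 and 68.3 CPM in *Cxcr2-/-*. The WT libraries were almost alike, whereas the *Cxcr2-/-* libraries were all higher, replicate 3 the least. The means were 58.5 ± 2.37 and 76.4 ± 12.4 CPM (SD, n = 4 each), a log2 fold change of 0.38 ± 0.11 (SE), below the 1.5-fold threshold. An annotated transcript on the opposite strand, *Gm43621*, overlaps its exons and was at 1.23 and 1.51 CPM on average.

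The balance of both cyclooxygenases therefore differed between the groups. Levels of different genes were compared per kb of exon, the merged length of all annotated exons of a gene. On this scale *Ptgs2* made up 90.0%, 92.5%, 91.7% and 91.3% of the cyclooxygenase RNA in the WT libraries, and 27.1%, 30.4%, 58.5% and 61.2% in the *Cxcr2-/-* libraries. *Ptgs2* was the main cyclooxygenase transcript in each WT library and in *Cxcr2-/-* replicates 3 and 4, while *Ptgs1* was in *Cxcr2-/-* replicates 1 and 2.

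*Ptges* (chr2:30889471-30929863) encodes the inducible microsomal prostaglandin E synthase, which often acts after cyclooxygenase-2. It was at 6.68, 6.19, 6.36 and 7.72 CPM in WT and at 5.06, 18.2, 3.48 and 3.14 CPM in *Cxcr2-/-*. In *Cxcr2-/-*, replicates 1, 3 and 4 were below all WT libraries and replicate 2 was above all of them, so no direction can be given. The means were 6.74 ± 0.687 and 7.47 ± 7.21 CPM (SD, n = 4 each) and the log2 fold change was 0.15 ± 0.46 (SE), and without *Cxcr2-/-* replicate 2 it was -0.79 ± 0.20. *Ptgs2* was at 40.8 CPM in that library and at 40.6 CPM in replicate 1.

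On the leukotriene side the first enzyme is 5-lipoxygenase, encoded by *Alox5* (chr6:116410077-116461178, minus strand). Its level was 432, 358, 413 and 429 CPM in WT and 638, 569.8, 517 and 482 CPM in *Cxcr2-/-*. All *Cxcr2-/-* libraries were above all WT libraries. The means were 408 ± 34.6 and 552 ± 67.8 CPM (SD, n = 4 each), a log2 fold change of 0.44 ± 0.11 (SE), below the 1.5-fold threshold. Per kb of exon, *Alox5* RNA was 0.453 to 0.830 times the level of *Ptgs2* in the WT libraries and 17.5, 15.6, 5.30 and 4.23 times in the *Cxcr2-/-* libraries, so that the order of these main enzymes of the prostaglandin and leukotriene branches was opposite in the groups.

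*Alox5ap* (chr5:149264767-149288153) encodes FLAP, the membrane protein that presents arachidonic acid to 5-lipoxygenase. It was at 357, 235, 321 and 302 CPM in WT and at 547, 443, 546 and 454 CPM in *Cxcr2-/-*. The groups did not overlap, although WT replicate 1 and *Cxcr2-/-* replicate 2 were closer to each other than to the far ends of their own groups. The means were 304 ± 51.2 and 498 ± 56.7 CPM (SD, n = 4 each) and the log2 fold change was 0.71 ± 0.13 (SE), or 0.58 without WT replicate 2, which is just under the 1.5-fold threshold. The antisense gene *Gm19719* overlaps exons of *Alox5ap* and was at 59.2 ± 1.84 and 65.2 ± 7.73 CPM. Whether reads were assigned by strand is not given in the sources used here, so a part of either value may belong to the other. Reads over exons of both may also have been left out of both as ambiguous. That class held 2.58% to 3.12% of all reads in HTSeq's totals.

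*Lta4h* (chr10:93453411-93484875) encodes leukotriene A4 hydrolase, the enzyme that completes leukotriene B4. It was at 216, 205, 230.3 and 224 CPM in WT and at 467, 454, 382 and 395 CPM in *Cxcr2-/-*. The *Cxcr2-/-* values lay well apart from the narrow WT range. The means were 219 ± 10.9 and 424 ± 42.0 CPM (SD, n = 4 each), a log2 fold change of 0.96 ± 0.10 (SE), and of the 9 genes *Lta4h* had the smallest standard error.

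*Ltc4s* (chr11:50236461-50238616, minus strand) encodes leukotriene C4 synthase, which joins leukotriene A4 to glutathione and starts the cysteinyl leukotrienes of mast cells, eosinophils and macrophages. It had few reads, 73, 57, 37 and 53 counts in the WT libraries and 22, 15, 22 and 12 counts in the *Cxcr2-/-* libraries, that is 1.61, 1.15, 0.989 and 1.53 CPM against 0.556, 0.415, 0.559 and 0.292 CPM. All *Cxcr2-/-* libraries were below all WT libraries. The means were 1.32 ± 0.301 and 0.455 ± 0.128 CPM (SD, n = 4 each) and the log2 fold change was -1.53 ± 0.31 (SE). The antisense gene *Gm26542* overlaps its exons at a higher level, 8.98 ± 1.57 and 8.23 ± 1.13 CPM, so the same limits hold for *Ltc4s*. Per kb of exon, *Lta4h* RNA was 22.3 to 38.7 times the level of *Ltc4s* in WT and 114 to 225 times in *Cxcr2-/-*, the ranges of both groups being apart.

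*Alox15* (chr11:70344152-70352031, minus strand) encodes the 12/15-lipoxygenase of mice, known from eosinophils and resident macrophages, and was the least abundant of the 9 genes in WT per kb of exon. It had 34, 40, 85 and 20 counts in the WT libraries and 101, 62, 221 and 337 counts in the *Cxcr2-/-* libraries. In CPM these were 0.752, 0.804, 2.27 and 0.578 against 2.55, 1.72, 5.62 and 8.19, so WT replicate 3 was above *Cxcr2-/-* replicate 2 and the groups overlapped. The means were 1.10 ± 0.786 and 4.52 ± 2.97 CPM (SD, n = 4 each), a log2 fold change of 2.04 ± 0.51 (SE), which ranged from 1.58 to 2.64 with each library left out in turn. *Alox15* remained a small part of the lipoxygenase RNA, 0.225% to 0.913% of *Alox5* and *Alox15* together per kb in WT and 0.501% to 2.76% in *Cxcr2-/-*.

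The eosinophil granule genes *Epx*, *Prg2* and *Prg3*, which encode eosinophil peroxidase and major basic proteins, varied across the libraries along with *Alox15*. Their summed level was 0.265, 1.13, 4.73 and 0.231 CPM in WT and 6.42, 3.35, 13.7 and 22.9 CPM in *Cxcr2-/-*. Ranked by this sum or by *Alox15*, the 8 libraries stood in the same order, with WT replicate 4 lowest and *Cxcr2-/-* replicate 4 highest, as the plot of both values shows. These 3 genes were picked from a list of 6 after their values were seen. The whole eosinophil list summed to 48.9 to 69.2 CPM in WT and 38.1 to 65.9 CPM in *Cxcr2-/-*, because *Siglecf* and *Ccr3*, the most abundant genes in it, were lower in *Cxcr2-/-*, at 48.1 ± 8.78 against 32.5 ± 2.86 CPM and 11.0 ± 1.85 against 4.95 ± 2.27 CPM, while *Il5ra* was below the filter. *Prg3* was below the filter too, with 0, 4, 4 and 0 counts in the WT libraries and 12, 4, 20 and 62 in the *Cxcr2-/-* libraries. The macrophage genes *C1qa*, *C1qb*, *C1qc* and *Mrc1* had lower means in *Cxcr2-/-* than in WT. The part of eosinophils in the *Alox15* values was not tested.

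**Figure D2:**
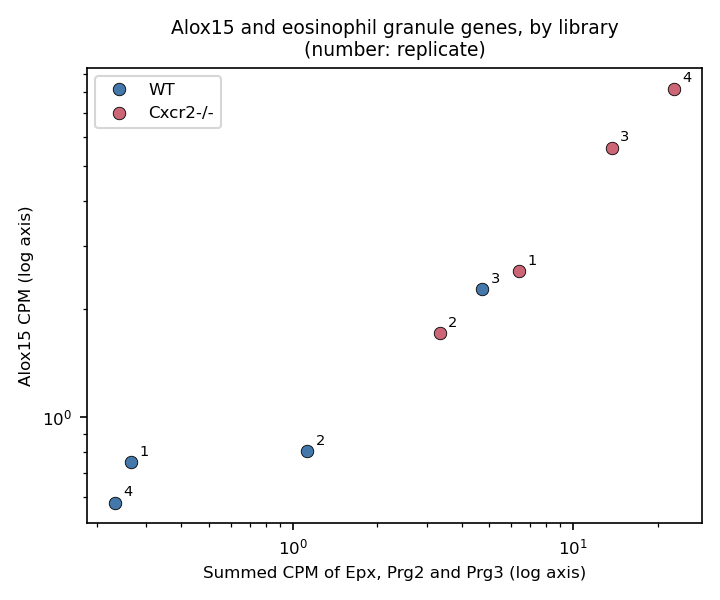
*Alox15* CPM (y axis, log scale) against the summed CPM of *Epx*, *Prg2* and *Prg3* (x axis, log scale), 1 point per library, WT in blue and *Cxcr2-/-* in red, with the replicate number beside each point. The points run from WT replicate 4 (0.231 and 0.578 CPM) to *Cxcr2-/-* replicate 4 (22.9 and 8.19 CPM), and WT replicate 3 lies between *Cxcr2-/-* replicates 2 and 1.

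Taken per kb of exon, the order of the 9 genes in WT was *Alox5ap* at 214 ± 36.03, *Ptgs2* at 162 ± 27.1, *Alox5* at 99.4 ± 8.42, *Lta4h* at 35.9 ± 1.78, *Ptgs1* at 15.1 ± 0.609, *Pla2g4a* at 3.59 ± 0.334, *Ptges* at 1.71 ± 0.175, *Ltc4s* at 1.30 ± 0.297 and *Alox15* at 0.449 ± 0.320 CPM per kb (SD, n = 4). Of neighbours in this order, *Alox5ap* and *Ptgs2* overlapped, as did *Ptges* and *Ltc4s*. In *Cxcr2-/-* the order began with *Alox5ap* at 350.4 ± 40.0, *Alox5* at 134 ± 16.5 and *Lta4h* at 69.6 ± 6.88 CPM per kb, the 3 steps towards leukotriene B4. *Ptgs1* followed at 19.7 ± 3.18 and *Ptgs2* at 17.3 ± 9.86 CPM per kb, whose values overlapped, and *Ptgs2* had thus gone from the second to the fifth place. *Pla2g4a* was at 4.91 ± 0.645, *Ptges* at 1.90 ± 1.83, *Alox15* at 1.84 ± 1.21 and *Ltc4s* at 0.449 ± 0.126 CPM per kb, where *Ptges* overlapped both of its neighbours. *Alox15* and *Ltc4s* had changed places at the low end. The order was the same in both groups when the longest transcript was used as the length.

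**Figure D3:**
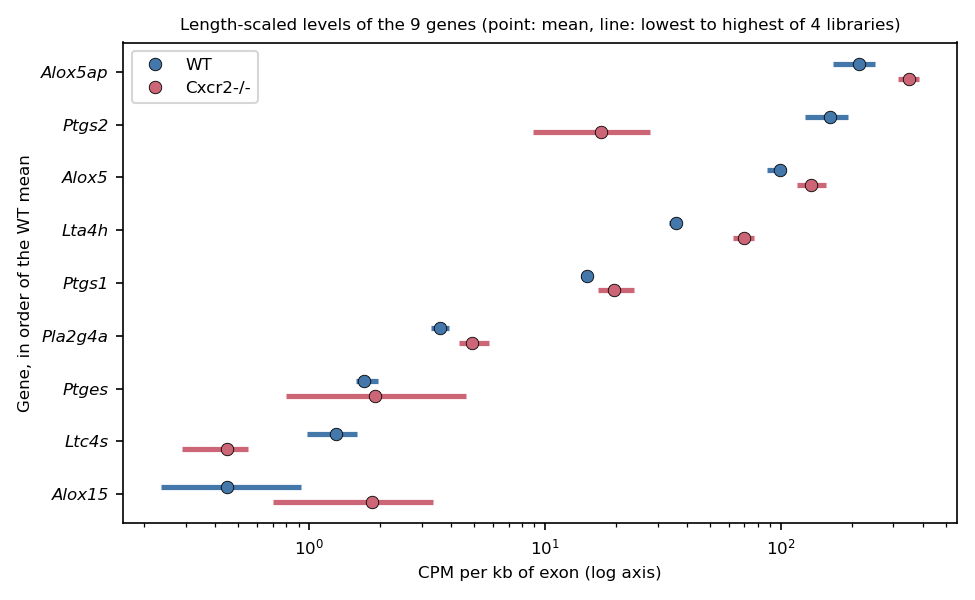
Level of the 9 genes in CPM per kb of exon (x axis, log scale), ordered by the WT mean, in WT (blue) and *Cxcr2-/-* (red); the point is the mean and the line runs from the lowest to the highest of the 4 libraries. *Ptgs2* is second in WT at 162 CPM per kb and beside *Ptgs1* in *Cxcr2-/-* at 17.3 CPM per kb.

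The other genes of the pathway were taken from a list of 61 genes in 8 roles, of which 42 passed the filter. For these genes, the adjusted p comes from the quasi-likelihood test of edgeR, with the Benjamini-Hochberg procedure applied over all 16778 genes. Of the 42, 12 were called lower and 13 higher, where 15.7% of all genes were called in each direction. With upper-quartile factors in place of TMM, 8 of them were called higher, since *Pla2g6*, *Acsl4*, *Lpcat3*, *Ptgr2* and *Abcc4* came out under 1.5-fold, and 38.0% of all called genes were higher in place of 50%. By adjusted p alone, 14 fell and 13 rose, where 21.0% of all genes fell and 23.7% rose, and 15 did not pass. The median log2 fold change was -0.11, beside 0.01 over all genes. The WT and *Cxcr2-/-* values did not overlap for 27 of the 42 genes, and for 41.6% of all genes tested. The list, like the 9 genes, was drawn up with earlier results of these data known.

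Among other phospholipases, all 6 tested genes were called, 4 lower and 2 higher. The share of all tested genes called, to be set beside this and the counts by role below, was 31.3%, with 15.7% in each direction. *Pla2g7*, the plasma form that degrades platelet-activating factor, was the most abundant and fell from 903 ± 125 to 429.8 ± 64.1 CPM (log2 fold change -1.07 ± 0.13, adjusted p = 4.01e-05). *Pla2g4f* (log2 fold change -1.41, adjusted p = 0.00405), *Pla2g16* (-0.89, 0.00204) and *Pla2g2d* (-3.39, 0.00329) also fell, the last from 2.61 to 0.245 CPM with values that overlapped between the groups. *Pla2g15*, a lysosomal phospholipase, rose (0.77, adjusted p = 6.15e-05), as did *Pla2g6* (0.59, 0.0111). *Pla2g6* lay on the 1.5-fold threshold and was under it with DESeq2 (0.56), RLE (0.57) or upper-quartile factors (0.47), either other filter, the replicate block (0.58), and without WT replicate 3 (0.52) or 4 (0.58) or *Cxcr2-/-* replicate 1 (0.48). The enzymes that put arachidonic acid back into membranes had 2 of 7 genes called, both higher, *Acsl4* from 19.2 to 30.1 CPM (0.65, adjusted p = 2.07e-04) and *Lpcat3* from 21.6 to 33.7 CPM (0.64, 3.30e-04). With upper-quartile factors neither reached 1.5-fold (0.53 and 0.52), nor did *Lpcat3* without WT replicate 2 (0.56). *Lpcat2* fell from 285 to 210.4 CPM (-0.44, adjusted p = 0.00261), below the 1.5-fold threshold. Phospholipase genes therefore differed in both directions, with *Pla2g4a* on the higher side.

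Beyond *Ptges*, the genes for the last step of prostanoid synthesis had 1 gene called lower and 1 higher of 5 tested. *Tbxas1*, thromboxane A synthase, was at 45.6, 48.6, 50.2 and 57.0 CPM in WT and at 25.4, 23.9, 20.0 and 21.2 CPM in *Cxcr2-/-*, without overlap. It fell with a log2 fold change of -1.16 ± 0.11 (SE, adjusted p = 3.57e-06), in the same direction as *Ptgs2*, whose product it uses. *Ptges2*, a further prostaglandin E synthase, rose from 8.95 ± 1.35 to 22.2 ± 3.38 CPM (1.31 ± 0.14, adjusted p = 1.27e-05), whereas *Ptges* had no such uniform difference. Of the genes that inactivate or export prostaglandins, 3 of 5 were called, all higher: *Ptgr1* (6.80 to 18.3 CPM, 1.43, adjusted p = 2.79e-06) and *Ptgr2* (0.62, 0.00461), which reduce the oxidised products, and the exporter *Abcc4* (36.1 to 54.8 CPM, 0.60, 1.54e-04). With upper-quartile factors *Ptgr2* (0.50) and *Abcc4* (0.48) were under 1.5-fold, as they were without WT replicate 2 (0.50 and 0.53) and with at least 10 counts in every library (0.58 and 0.57). *Ptgr2* was also under it without *Cxcr2-/-* replicate 2 (0.58), and *Abcc4* with DESeq2 (0.58) or RLE factors (0.58) and without WT replicate 3 (0.58) or *Cxcr2-/-* replicate 1 (0.57). *Hpgd*, the dehydrogenase that starts this breakdown, was at 1.16 and 1.01 CPM (-0.21, adjusted p = 0.784).

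In the leukotriene branch, 2 of 6 further genes for conversion and inactivation were called lower and 2 higher. *Ggt1*, a gamma-glutamyl transferase that can turn leukotriene C4 into leukotriene D4, rose from 5.71 ± 1.76 to 81.1 ± 8.59 CPM (3.83 ± 0.20, adjusted p = 7.77e-08). Genes for making its substrate differed in both directions. *Ltc4s* was lower, at 1.32 and 0.455 CPM. *Mgst2*, which can also make leukotriene C4, rose from 12.3 to 33.3 CPM (1.44, adjusted p = 1.99e-04). In *Cxcr2-/-* replicate 2 *Mgst2* was at 52.6 CPM, against 23.6 to 28.9 CPM in the others. *Cyp4f18*, an enzyme that inactivates leukotriene B4 in mouse neutrophils, fell from 525 ± 66.5 to 292 ± 14.9 CPM (-0.85 ± 0.11, adjusted p = 5.26e-05). The synthesis genes *Alox5*, *Alox5ap* and *Lta4h* differed in the direction opposite to that of *Cyp4f18*. This does not hold for every inactivation gene, since *Ptgr1*, named above with the prostaglandin genes, rose (1.43, adjusted p = 2.79e-06). *Ephx1* was at 0.746 and 0.276 CPM (-1.42, adjusted p = 0.0166, and 0.0609 without WT replicate 1). *Alox12*, the only other lipoxygenase gene that passed the filter, was at 0.589 and 0.852 CPM (adjusted p = 0.218).

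Of 7 prostanoid receptor genes tested, 4 were called lower and 1 higher. *Ptger2*, a receptor for prostaglandin E2, fell from 88.3 ± 8.09 to 45.1 ± 2.88 CPM (-0.97 ± 0.09, adjusted p = 5.01e-06), and *Ptger4*, the other receptor that raises cyclic AMP for the same ligand, fell from 29.7 ± 1.98 to 21.1 ± 3.18 CPM (-0.49, adjusted p = 0.00369), which is below the 1.5-fold threshold. *Ptger3* (-1.42, adjusted p = 0.0177), *Ptgdr* (-0.86, 0.0103) and *Ptgdr2* (-0.96, 0.0248) fell at levels under 3 CPM, and *Ptger3* did not pass without WT replicate 1 (adjusted p = 0.0571). *Ptgdr2* did not pass with no filter (adjusted p = 0.0580) or without WT replicate 3 (0.0622) or *Cxcr2-/-* replicate 1 (0.0669) or 2 (0.0652). *Ptgir*, the prostacyclin receptor, rose from 37.9 ± 3.12 to 73.3 ± 19.6 CPM (0.95, adjusted p = 3.82e-04). Of 5 leukotriene and lipoxin receptor genes, *Ltb4r1*, the high-affinity receptor for leukotriene B4, rose from 162 ± 15.7 to 309 ± 32.8 CPM (0.93 ± 0.11, adjusted p = 2.17e-05), beside 0.96 for *Lta4h*. *Fpr2*, which encodes a receptor for lipoxin A4 and formyl peptides, rose from 288 to 571 CPM (0.99, adjusted p = 1.20e-04) but overlaps *Fpr3* on the same strand in the annotation, and *Ltb4r2* fell from 1.85 to 1.09 CPM (-0.76, adjusted p = 0.0400) with overlapping values, and did not pass when any of 6 libraries was left out (adjusted p = 0.0636 to 0.0990).

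**Figure D4:**
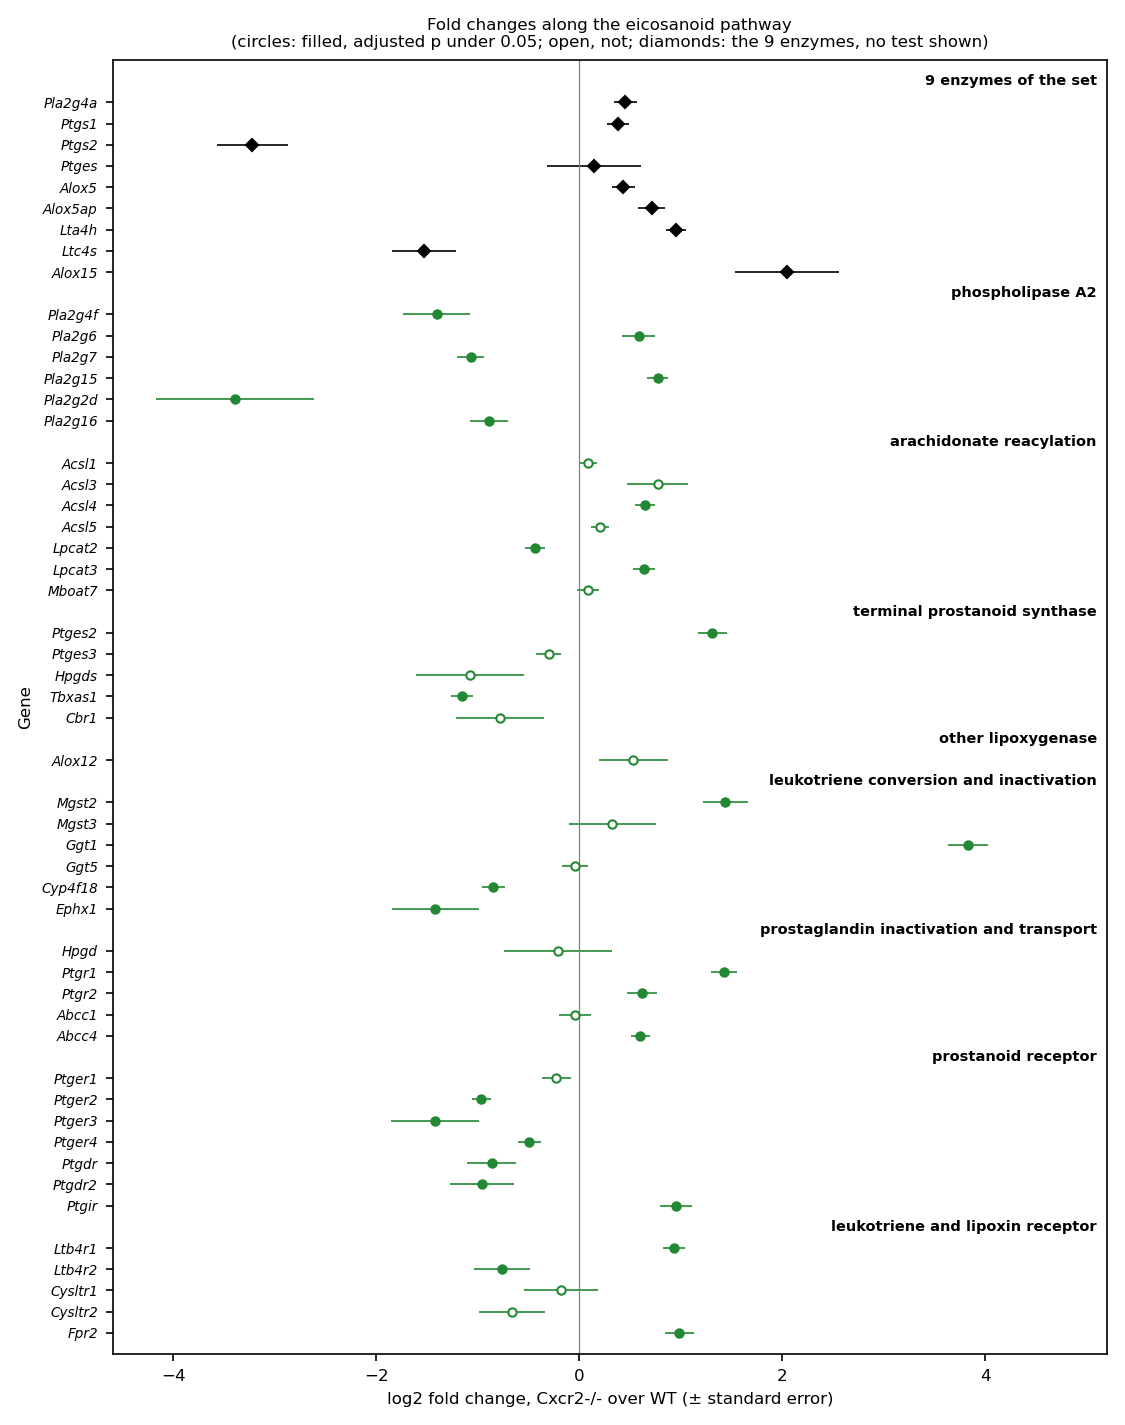
log2 fold change of *Cxcr2-/-* over WT (x axis) with its standard error for the 9 genes (black diamonds) and the 42 other pathway genes tested (green circles), grouped by role; filled circles have an adjusted p under 0.05 and diamonds carry no test. *Pla2g2d* at -3.39, with a wide error, and *Ptgs2* at -3.22 stand at the far left, and *Ggt1* at 3.83 at the far right.

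The region around *Ptgs2* was examined next. RNA genes on the opposite strand are named after it, *Ptgs2os*, which ends 68 bases before the start of *Ptgs2* (chr1:150074873-150099963), and *Ptgs2os2*, 50.8 kb after its end (chr1:150159043-150164948), and neither overlaps it. *Ptgs2os* had 38, 75, 41 and 74 counts in the WT libraries and 2, 2, 6 and 6 counts in the *Cxcr2-/-* libraries, and fell with a log2 fold change of -3.73 ± 0.47 (SE, adjusted p = 3.91e-05). *Ptgs2os2* was at 13.5, 14.8, 17.2 and 15.8 CPM in WT and at 2.07, 2.21, 2.80 and 2.67 CPM in *Cxcr2-/-*, and fell by 2.65 ± 0.15 on the log2 scale (adjusted p = 1.13e-07). Both RNAs were lower in each *Cxcr2-/-* library than in any WT library, and both were lower in *Cxcr2-/-* replicates 1 and 2 than in 3 and 4, as was *Ptgs2*. Within 300 kb on either side, 13 genes were annotated and 6 tested. The other genes among these were *Pla2g4a* at 0.45, *Odr4* at -0.12 ± 0.13 and *Tpr* at 0.47 ± 0.08 (log2 fold change ± SE), so the negative values were those of *Ptgs2*, of its neighbouring antisense RNAs and, within its standard error of 0, of *Odr4*.

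Of 15 genes for factors known to act on *Ptgs2* transcription or on its mRNA, all were tested, 7 were called lower and 0 higher, where 15.7% of all genes were called in each direction, and their median log2 fold change was -0.58. By adjusted p alone, 9 fell and 2 rose, where 21.0% of all genes fell and 23.7% rose. The 2 that rose were *Nfkb1* (0.34, adjusted p = 0.0105) and *Mapkapk2* (0.26, 0.0468). The AP-1 and ATF genes had the largest falls. *Atf3* fell by 3.21 ± 0.35 on the log2 scale (225 to 24.2 CPM, adjusted p = 1.36e-05), *Fos* by 2.82 ± 0.27 (2794 to 397 CPM, 4.93e-06), *Fosb* by 2.57 ± 0.33 (429.0 to 72.0 CPM, 5.25e-05), *Junb* by 1.57 ± 0.17 (2252 to 756 CPM, 1.06e-05) and *Jun* by 1.56 ± 0.32 (234 to 79.6 CPM, 0.00165). *Cebpb*, whose product binds C/EBP sites such as those marked in the promoter above, fell by 1.01 ± 0.18 (370.0 to 183 CPM, adjusted p = 6.48e-04), and *Cebpd* was at 382 and 342 CPM (adjusted p = 0.364). *Creb1*, whose product binds CRE sites, fell by 0.30 ± 0.10 (adjusted p = 0.0256) and *Rela* was at 112 and 101 CPM (adjusted p = 0.170).

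Among the genes that act on *Ptgs2* mRNA, *Zfp36*, whose product speeds the decay of such mRNAs, fell from 1362 ± 114 to 552 ± 158 CPM (-1.30 ± 0.17, adjusted p = 6.67e-05), and *Celf2* fell by 0.58 ± 0.10 (adjusted p = 4.82e-04). *Elavl1*, whose product stabilises them, was at 59.6 ± 4.03 and 60.1 ± 3.40 CPM (adjusted p = 0.922). *Ptgs2* was therefore lower alongside genes for factors that act on its transcription and a gene for a factor of its decay. The part of these factors in the *Ptgs2* values was not tested. Across the *Cxcr2-/-* libraries, *Atf3* was at 15.2, 10.0, 34.3 and 37.4 CPM and *Fos* at 320.0, 197, 572 and 498 CPM, and like *Ptgs2* both were higher in replicates 3 and 4 than in 1 and 2.

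**Figure D5:**
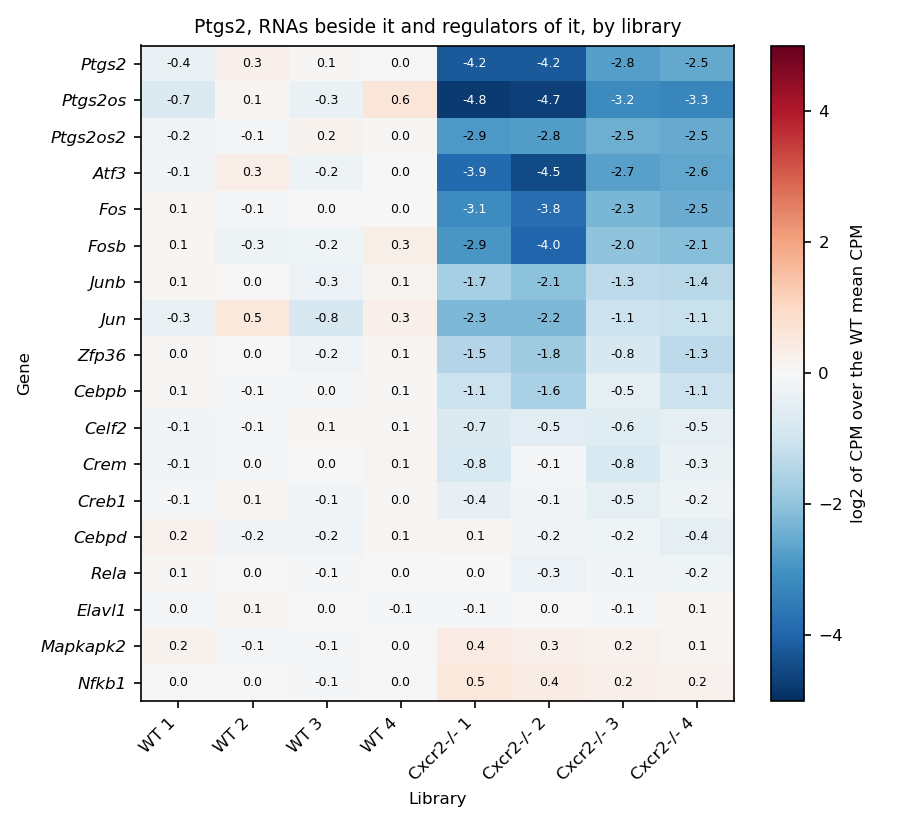
log2 of the CPM in each library (columns) over the mean CPM of the WT libraries, for *Ptgs2*, the RNAs beside it and the 15 regulator genes (rows); blue is lower and red higher than the WT mean. *Ptgs2*, *Ptgs2os*, *Atf3* and *Fos* are lower in all 4 *Cxcr2-/-* libraries, and least so in replicates 3 and 4.

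The genes whose pattern over the 8 libraries was most like that of each of the 9 were ranked by the root mean square difference of log2 CPM after each gene was centred on its own mean. For *Ptgs2* they were *Atf3* (0.20), *Gpr83* (0.30, with counts down to 0), *Ptgs2os* (0.36), *Nr4a1* (0.38) and *Gm47405* (0.38). *Nr4a1*, an immediate early gene for a nuclear receptor, was at 379, 460.2, 337 and 414 CPM in WT and 38.5, 33.8, 99.5 and 95.5 CPM in *Cxcr2-/-*. Patterns close to *Alox5* were much tighter, with *Exoc7* (0.03), *Clint1* (0.05) and *Cybc1* (0.05), and those close to *Alox5ap* were *Ndufa8* (0.05), *Lamtor1* (0.05) and *Ndufa3* (0.05). *Lta4h* was followed by *Pxylp1* (0.06), *Dele1* (0.06) and *Chd1l* (0.07), *Pla2g4a* by *Rab18* (0.07), *Sarnp* (0.07) and *Clec4a2* (0.07), and *Ptgs1* by *Map4* (0.06), *Mapk4* (0.06) and *Clec16a* (0.06). *Ltc4s* had *Gm5526* (0.16), *Klf2* (0.20) and *Ms4a15* (0.20), and the least similar neighbours were those of *Ptges*, *Chtf8* (0.36), *Tmigd3* (0.39) and *Gm16106* (0.39), and of *Alox15*, *Cacna1b* (0.45), *Dnph1* (0.46) and *Gm47980* (0.47). Since all patterns hold the difference between the groups, this likeness is a description over 8 libraries and no test.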

How the data were processed

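Neutrophils were sorted from the spleen of 4 WT and 4 *Cxcr2-/-* mice, and each RNA sample was depleted of ribosomal RNA before sequencing. Per the labels, reads were checked with FastQC and counted per gene with HTSeq, on mm10. The authors deposited the counts as whole numbers per Ensembl identifier, without normalization. The annotation release and the strand setting of the counting are not given in the sources used here. Symbols and positions came from GENCODE M21 (GRCm38), which has 52081 of the 55414 identifiers. Identifiers without an entry held 1.43% of the counts, and only 35 identifiers had the version number of that release, so exon lengths are those of M21 and may differ from those counted. HTSeq's own totals were left out of library sizes. Promoter windows came from RefSeq.

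Counts were compared in R 4.3.3 with edgeR 4.0.16 (TMM, filterByExpr, quasi-likelihood test, Benjamini-Hochberg over all genes tested) over all 8 libraries, with no covariate. A gene was called at an adjusted p under 0.05 and at least 1.5-fold, the thresholds of the study's methods. The steps were tested on simulated data with known changes. CPM are counts per 1000000 counts on the genes that passed the filter, with each library size multiplied by its TMM factor. Their precision is limited by depth for genes such as *Ltc4s* with under 100 counts. No libraries of one group were duplicates (chi-square per gene between them 23.9 to 99.0). Same-numbered WT and *Cxcr2-/-* mice are different animals.

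The members and the gene lists were chosen with earlier results of these data known. Genes named are all 9 members, *Cxcr2*, pathway and *Ptgs2* regulator genes past both thresholds, *Tbxas1*, *Hpgd*, *Ptger2*, *Ptger4* and *Ltb4r1*, the genes of most similar pattern (5 for *Ptgs2*, 3 for the others), and markers. Other genes named in the pathway, regulator and region lists, and antisense genes, were named after their values were seen. Alternatives were DESeq2 1.42.0, RLE and upper-quartile factors, a minimum of 10 counts in all libraries, no filter, a block for the replicate number, no fold threshold, the longest transcript as length, and each library left out in turn. All 8 libraries entered the main comparison.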

Additional observations from a re-analysis of the deposited data

Results flagged for a closer look

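In each group of 4 libraries, the highest and the lowest value of the 9 enzyme genes and the 36 other named pathway and regulator genes were set against the rest of their group (Dixon's ratio of gap to range, above its 95% critical value), which singled out 6 of 90 groups, where chance gives about 1 in 20.

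*Ptges* in *Cxcr2-/-* replicate 2 was at 18.2 CPM, far from the other 3 libraries at 3.14 to 5.06 CPM. *Alox15* in WT replicate 3 was at 2.27 CPM, with the others at 0.578 to 0.804 CPM. *Pla2g4f* in *Cxcr2-/-* replicate 4 was at 0.705 CPM, with the others at 0.443 to 0.457 CPM. *Ptges2* in WT replicate 4 was at 11.0 CPM, with the others at 8.14 to 8.42 CPM, and all 4 were below the *Cxcr2-/-* range. *Ptgr1* in WT replicate 2 was at 5.67 CPM, with the others at 7.11 to 7.21 CPM. *Ptger4* in WT replicate 2 was at 32.7 CPM, with the others at 28.5 to 28.97 CPM.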

How the results depend on the processing

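The log2 fold changes of *Ptgs1*, *Ptgs2*, *Pla2g4a*, *Alox5*, *Alox5ap*, *Lta4h*, *Ltc4s* and *Alox15* kept their direction under all 14 alternatives, from -3.56 to -3.00 for *Ptgs2*, 0.26 to 0.44 for *Ptgs1*, 0.33 to 0.52 for *Pla2g4a*, 0.31 to 0.48 for *Alox5*, 0.58 to 0.80 for *Alox5ap*, 0.84 to 0.99 for *Lta4h*, -1.67 to -1.38 for *Ltc4s* and 1.58 to 2.64 for *Alox15*. *Ptges* did not, with -0.79 to 0.39 when each library was left out in turn, the lowest without *Cxcr2-/-* replicate 2. Leaving out each library gave 2 to 3 of the 9 genes called lower (3 without *Cxcr2-/-* replicate 2) and 2 to 3 higher (2 without WT replicate 2), 9 to 12 pathway genes lower and 10 to 14 higher, and 7 to 9 regulators lower. *Hpgd*, which did not pass, ranged from -0.59 to 0.17, being above 0 without WT replicate 2 (0.17) and without *Cxcr2-/-* replicate 1 (0.14). In edgeR, *Ephx1* (adjusted p = 0.0609) and *Ptger3* (0.0571) did not pass without WT replicate 1, *Ptgdr2* did not pass with no filter (0.0580) or without WT replicate 3 (0.0622) or *Cxcr2-/-* replicate 1 (0.0669) or 2 (0.0652), and *Ltb4r2* did not pass without WT replicate 1, 3 or 4 or *Cxcr2-/-* replicate 1, 2 or 4 (0.0636 to 0.0990). The cause was not tested.

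Upper-quartile factors moved the median of all genes by -0.12, so that 38.0% of called genes were higher in place of 50% (1975 higher and 3227 lower), with 8 pathway genes higher in place of 13 (*Pla2g6*, *Acsl4*, *Lpcat3*, *Ptgr2* and *Abcc4* under 1.5-fold at an adjusted p under 0.05) and *Lta4h* at 0.84 in place of 0.96. With no fold threshold, 6 of the 9 genes, 2 regulators and 3969 of all genes were called higher. The deviations of same-numbered libraries from their group means had correlations of 0.12, -0.19, 0.16 and -0.26. With 4 libraries per group, these values cannot settle whether the replicate numbers pair the samples. With the replicate number as a block, 2518 genes were lower and 2470 higher in place of 2628 each, *Ptgs2* being at -3.40 and *Ptges* at -0.26. Depth limits *Ltc4s*, *Alox15* and *Ptgs2os*, with under 100 counts in several libraries.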
